A study of Mus musculus with 2 samples.

Results

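The AP-1 transcription factor genes were compared between UVB-induced skin tumours of P2ry6-/- and P2ry6+/+ mice. The 10 genes are Fos, Fosb, Fosl1, Fosl2, Jun, Junb, Jund, Atf3, Batf and Maff, taken by gene name from 37293 genes named on the array. They had 15 probes, of which 13 were measured on both arrays and entered the gene values, and each of the 10 genes had at least 1 such probe. On the array labelled P2ry6-/-, Fosb, Atf3, Fos and Fosl1 were more than 4-fold lower than on the array labelled P2ry6+/+, and Jund and Junb were just over 2-fold lower. Jun, Maff, Fosl2 and Batf were less than 2-fold apart, and none of the 10 genes was 2-fold higher.

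Total RNA came from skin tumours of male mice irradiated on the back, 1 RNA sample labelled P2ry6-/- (KO-labelled) and 1 labelled P2ry6+/+ (WT-labelled), each hybridised to 1 single-colour Agilent array. Mice of both genotypes were 2 months old at the start and received UVB at 180 mJ/cm2 for 10 weeks, raised by 10 mJ/cm2 weekly to 300 mJ/cm2 at week 22 and held there to week 40. P2ry6 encodes a G protein-coupled receptor for extracellular nucleotides, with UDP as its main agonist. The labels do not say which stretch of P2ry6 was deleted or how many tumours or animals were pooled for an array.

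AP-1 is a dimer of basic leucine zipper proteins in which a Jun protein pairs with a Fos protein, another Jun protein or an ATF or BATF protein. Many AP-1 genes are immediate early genes, which ultraviolet light, growth factors and wounding switch on within minutes through MAP kinases and factors already bound at their promoters. In mouse epidermis AP-1 is known for its part in keratinocyte proliferation and differentiation and in the formation of skin tumours.

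With 1 array per group there was no replicate and no test, so each difference below describes these 2 arrays and not the genotypes. A level is the log2 processed signal relative to the array's 75th percentile, and a difference is the KO-labelled level minus the WT-labelled level. The gene P2ry6 itself went against the labels. Its probes read 835 and 318 signal units on the KO-labelled array and 364 and 137 units on the WT-labelled array, which made it 2.44-fold higher on the array labelled KO, a difference of 1.29 (0.76 on a scale set by spike-in RNAs). A probe outside the deleted stretch would not check the label, so every direction below rests on the labels as given. The arrays had 57.9% (KO-labelled) and 57.8% (WT-labelled) of their spots well above background. Keratin 14 (Krt14), a defining marker of basal keratinocytes, had levels of 9.55 on the KO-labelled and 9.54 on the WT-labelled array. Its partner keratin 5 (Krt5) had levels of 9.04 on the KO-labelled and 7.38 on the WT-labelled array, a difference of 1.66. Replicate spots of a probe differed with an SD of 0.12 log2 units between arrays (293 probes), and different probes of a gene with an SD of 0.38 (6739 genes). Of the 10 AP-1 genes, 9 differed by more than 0.38 and 7 by more than 0.75, which is 2 such SDs. The share of all measured genes past these lines was not counted, so these counts do not set the AP-1 genes apart. The differences of all measured genes had an SD of 0.65, wider than the SD between probes. The SDs between spots and between probes cover the measurement and not the spread between tumours. In tumour RNA, fewer cells of a type and less RNA per cell cannot be told apart.

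The Fos family held the widest range of differences. Fos is the founding member, cannot pair with itself and is an immediate early gene. Its probe (mm9, chr12:86818118-86818177, plus strand) read 2619 ± 262 units on the KO-labelled array and 14300 ± 1430 on the WT-labelled array, where ± is the scanner software's error estimate. The difference was -2.36, or 5.15-fold lower on the KO-labelled array, and the error ranges did not overlap.

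Fosb, a close relative of Fos with the same early induction, had the greatest difference of the 10 genes. Its main probe (chr7:19888168-19888227, minus strand) read 454 ± 45.7 units on the KO-labelled array and 4681 ± 468 on the WT-labelled array. The difference was -3.28, or 9.71-fold lower. A second Fosb probe lies 1978 bases away (chr7:19890146-19890205, minus strand). It read 9.10 ± 4.22 units on the KO-labelled array, where it was not well above background, and 70.2 ± 8.16 units on the WT-labelled array. That probe was therefore at least 3.81-fold lower on the KO-labelled array, with both probes lower in the same direction. The first 30 bases of each probe are shown because they mark the separate stretches of Fosb that gave the same direction.
Fosb, main probe: actgccgaccacaattcattgactccatag
Fosb, second probe: ccttcttgctctgtaaactctttagacaaa

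Fosl1 encodes Fra-1, a Fos protein without the activation domain of Fos that is often high in invasive carcinoma cells. Its probe (chr19:5455496-5455555, plus strand) read 232 ± 23.5 units on the KO-labelled array and 1026 ± 103 on the WT-labelled array. Fosl1 was thus 4.16-fold lower on the KO-labelled array, a difference of -2.06.

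Fosl2 encodes Fra-2, the relative most like Fra-1, and had the smallest difference of the 10 genes. Its probe in the more upstream position (chr5:32455088-32455147, plus strand) read 116 ± 12.3 units on the KO-labelled and 105 ± 11.4 on the WT-labelled array. Its second probe, 4988 bases further along (chr5:32460076-32460135, plus strand), read 3534 ± 353 units on the KO-labelled and 4516 ± 452 on the WT-labelled array. The probes thus lay on opposite sides of 0, with differences of 0.22 and -0.27. Their mean was -0.03 ± 0.34 (SD, n = 2 probes), which is within the spread between probes. The beginnings of the Fosl2 probes are shown because these are the members' only measured probes that disagreed in sign.
Fosl2, upstream probe: gattgctgagctgcagaaggagaaggagaa
Fosl2, downstream probe: gctatggaggaaagaacatattaaaaactt

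**Figure D1:**
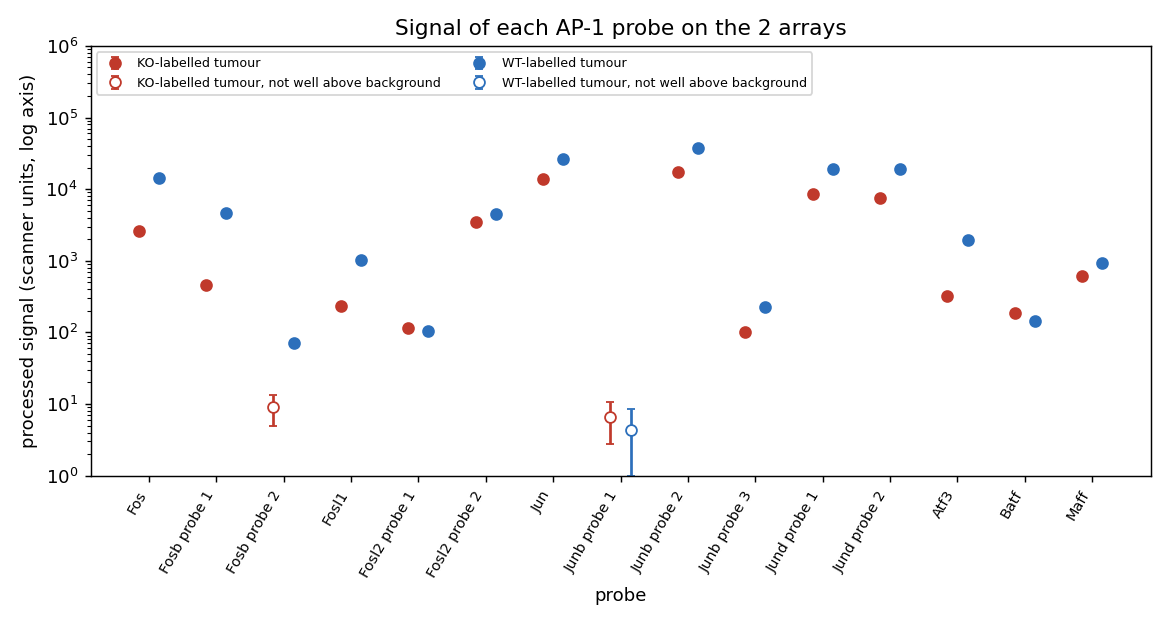
Processed signal of each of the 15 AP-1 probes on the KO-labelled array (red, left of each pair) and the WT-labelled array (blue), on a log axis in scanner units. Bars are the scanner software's error estimate, the lowest one cut at the axis, and open points were not well above background. Fos read 2619 units on the KO-labelled and 14300 on the WT-labelled array, and the Fosl2 and Batf points lie close together.

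The Jun family showed smaller differences, all in the same direction. Jun is the central partner of the Fos proteins. Its probe (chr4:94716928-94716987, minus strand) read 13771 ± 1377 units on the KO-labelled array and 25976 ± 2598 on the WT-labelled array. The difference of -0.83, or 1.78-fold lower, did not reach 2-fold.

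Junb, which restrains Jun in many settings and is itself an immediate early gene, had a pair of measured probes 1038 bases apart. The brighter (chr8:87500843-87500902, minus strand) read 17141 ± 1714 units on the KO-labelled and 37348 ± 3735 on the WT-labelled array. The dimmer (chr8:87501881-87501940, minus strand) read 100.1 ± 10.8 units on the KO-labelled and 224 ± 22.8 on the WT-labelled array. The probes gave nearly the same difference, -1.04 and -1.08, with a mean of -1.06 ± 0.03 (SD, n = 2 probes), or 2.08-fold lower on the KO-labelled array. The remaining probe named Junb (chr8:87496635-87496694, minus strand) was not well above background on either array. It read 6.61 units on the KO-labelled and 4.32 on the WT-labelled array.

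Jund, the Jun protein that is made steadily in resting cells, had probes 134 bases apart. The upstream one (chr8:73224302-73224361, plus strand) read 8627 ± 863 units on the KO-labelled and 19307 ± 1931 on the WT-labelled array. The downstream one (chr8:73224436-73224495, plus strand) read 7443 ± 744 units on the KO-labelled and 19025 ± 1902 on the WT-labelled array. Their mean difference was -1.17 ± 0.14 (SD, n = 2 probes), or 2.25-fold lower on the KO-labelled array. The calls of Junb and Jund sat close to the 2-fold line. Jund was short of it under quantile normalization (-0.92), under loess (-0.99) and in the values deposited by the authors (-0.98). Junb was short of it under quantile normalization (-0.97), under loess (-0.98), in the deposited values (-0.998) and under normexp background correction (-0.89). Without a filter on dim probes Junb was at -0.47, since its dim probe then enters the mean.

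Atf3, Batf and Maff are partners from other zipper families, and their differences ran from -2.49 to 0.46. Atf3 encodes a stress-induced partner of Jun. Its probe (chr1:192994547-192994606, minus strand) read 326 ± 32.9 units on the KO-labelled array and 1942 ± 194 on the WT-labelled array. With a difference of -2.49, Atf3 was 5.61-fold lower on the KO-labelled array.

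Batf, a partner of Jun proteins best known from lymphocytes and dendritic cells, was the only one of the 10 genes with a positive difference. Its probe (chr12:87049872-87049929, plus strand) read 188 ± 19.4 units on the KO-labelled and 144 ± 15.2 on the WT-labelled array, a difference of 0.46. It was also the only one of the 10 whose mean level lay below the 75th percentile. Maff encodes a small MAF protein, which lacks an activation domain of its own. Its probe (chr15:79189442-79189501, plus strand) read 619 ± 62.1 units on the KO-labelled and 927 ± 92.8 on the WT-labelled array. The difference was -0.50, short of 2-fold.

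**Figure D2:**
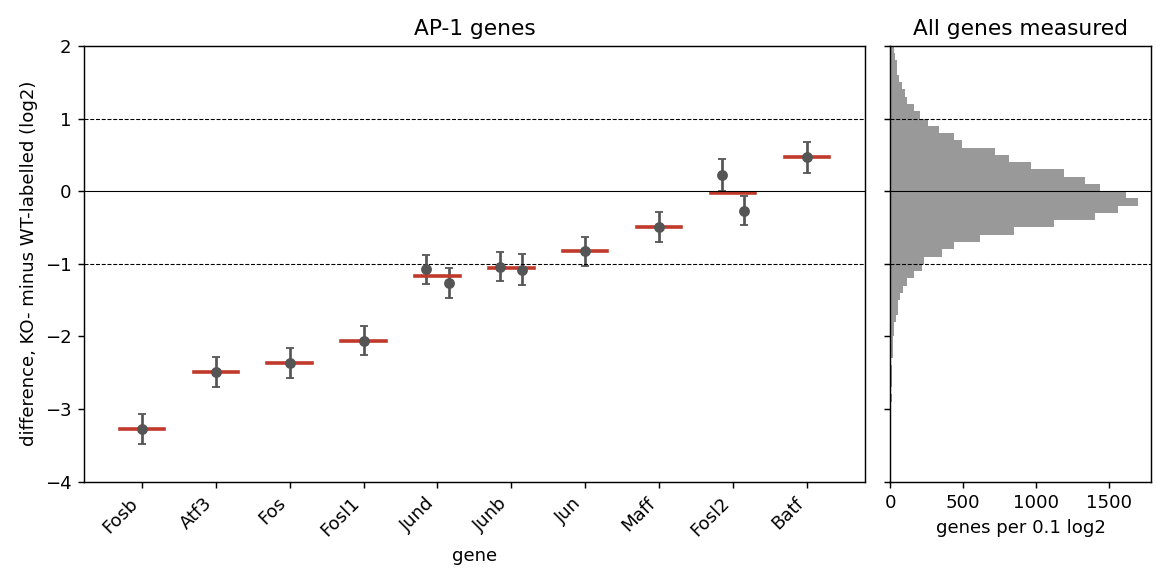
Left, difference of each AP-1 gene, KO-labelled minus WT-labelled, in log2 units: grey points are measured probes with the SD from the scanner software's error model, and red lines are the gene's value. Right, the differences of all 19852 measured genes, with genes outside the axis range not drawn and dashed lines at 2-fold. The AP-1 genes run from -3.28 for Fosb to 0.46 for Batf.

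Across all 19852 measured genes, 1001 were at least 2-fold lower on the KO-labelled array, which is 5.04%, and 956 were at least 2-fold higher, which is 4.82%. Against that background 6 of the 10 AP-1 genes were at least 2-fold lower and 0 at least 2-fold higher. At 4-fold the background was 0.826% of genes lower (164 genes), against 4 of the 10 AP-1 genes. The median difference was -1.12 over the AP-1 genes and -0.06 over all genes. Ranked from the lowest difference among all measured genes, Fosb stood at 36, Atf3 at 89, Fos at 103 and Fosl1 at 155. Jund and Junb followed at 662 and 860, Jun at 1463 and Maff at 3527, while Fosl2 at 10486 and Batf at 16388 lay in the bulk of genes. The AP-1 genes were also set beside genes with a mean level above the 75th percentile. That percentile is taken over all non-control probes, dim ones included, so 9206 of the 19852 measured genes lay above it. Of these 9206 genes 5.13% were at least 2-fold lower, against 6 of the 9 AP-1 genes above it. The split of all genes depended on the scale. Normexp correction gave 578 lower and 367 higher genes, and the scale set by the array's spike-in RNAs gave 3758 lower and 268 higher genes.

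**Figure D3:**
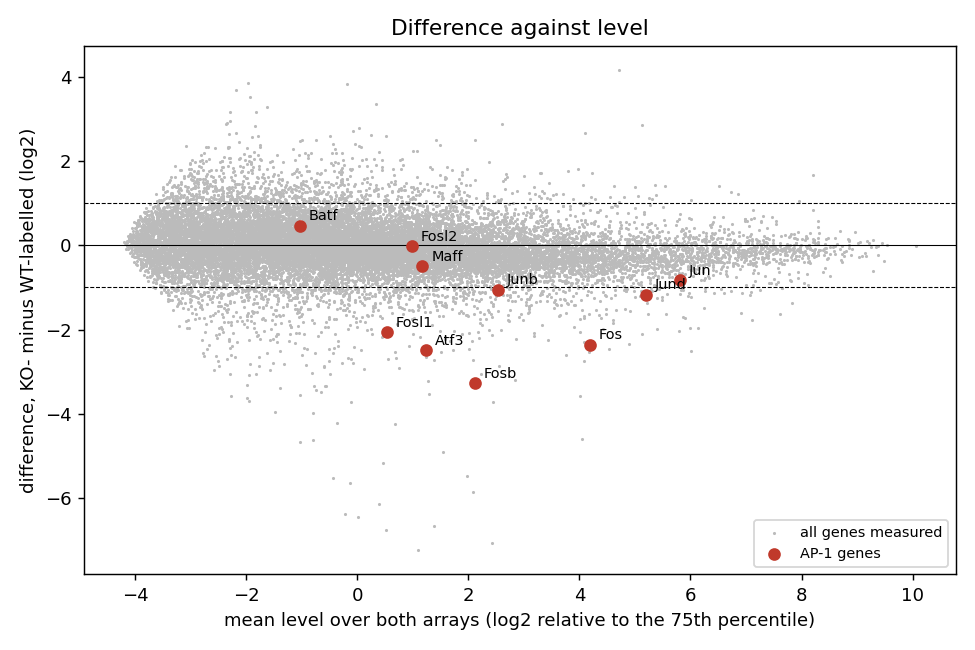
Difference of each gene, KO-labelled minus WT-labelled in log2 units, against its mean level over both arrays, for all 19852 measured genes (grey) and the AP-1 genes (red), with dashed lines at 2-fold. Fosb, Atf3, Fos and Fosl1 lie at differences of -3.28, -2.49, -2.36 and -2.06, and Batf is the AP-1 gene at the lowest mean level.

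The families within AP-1 were set side by side. The 4 Fos family genes had a median difference of -2.21, with 3 of them at least 2-fold lower. The 3 Jun family genes had a median of -1.06 within a narrow range, -1.17 to -0.83, with 2 at least 2-fold lower. Fos therefore differed 2.89-fold more than Jun, and Fosb 5.46-fold more than Jun. Fosl1 differed 4.09-fold more than Fosl2. These ratios compare differences between arrays within a gene and do not rank the levels of different genes, since probes differ in brightness. They are the same under any scaling that multiplies a whole array.

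Promoter letters are shown for Fosb, Atf3 and Fos, the genes with the greatest differences, and for Jun and Batf as AP-1 genes less than 2-fold apart. Many AP-1 genes are known to carry cAMP response elements, which ATF and CREB proteins bind, and sites for AP-1 itself. RefSeq promoter windows on GRCm38.p6 were listed for 9 of the 10 genes, with 3 windows for Maff and none for Fosl1. The 250 bases before the start were searched on both strands for 4 motifs. TGACG is the core of the cAMP response element, and TGACGTCA is the full element, which contains that core. TGANTCA covers the classical AP-1 site. TGACATCA is the variant known from the Jun promoter. Capitals mark every match, in the orientation of the gene.
Fosb, chr7:19310046-19310295, minus strand: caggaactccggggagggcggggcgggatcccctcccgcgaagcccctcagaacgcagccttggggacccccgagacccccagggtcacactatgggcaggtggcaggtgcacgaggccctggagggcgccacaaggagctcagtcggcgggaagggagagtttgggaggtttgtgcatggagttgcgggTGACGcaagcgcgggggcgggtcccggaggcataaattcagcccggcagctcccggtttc
Atf3, chr1:191183334-191183583, minus strand: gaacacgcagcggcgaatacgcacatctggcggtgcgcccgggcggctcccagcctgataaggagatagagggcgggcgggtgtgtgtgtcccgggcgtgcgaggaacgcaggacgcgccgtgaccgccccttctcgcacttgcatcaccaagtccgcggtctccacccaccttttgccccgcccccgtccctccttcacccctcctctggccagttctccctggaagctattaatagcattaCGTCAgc
Fos, chr12:85473640-85473889, plus strand: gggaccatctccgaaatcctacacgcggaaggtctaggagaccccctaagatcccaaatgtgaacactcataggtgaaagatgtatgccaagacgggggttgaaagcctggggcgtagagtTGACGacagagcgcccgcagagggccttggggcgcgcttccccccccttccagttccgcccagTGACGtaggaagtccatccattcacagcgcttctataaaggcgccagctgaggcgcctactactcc
Jun, chr4:95052223-95052472, minus strand: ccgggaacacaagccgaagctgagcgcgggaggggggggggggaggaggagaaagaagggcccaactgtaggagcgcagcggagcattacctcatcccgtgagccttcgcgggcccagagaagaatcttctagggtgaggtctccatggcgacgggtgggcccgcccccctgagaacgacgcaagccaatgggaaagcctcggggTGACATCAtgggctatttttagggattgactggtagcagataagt
Batf, chr12:85686470-85686719, plus strand: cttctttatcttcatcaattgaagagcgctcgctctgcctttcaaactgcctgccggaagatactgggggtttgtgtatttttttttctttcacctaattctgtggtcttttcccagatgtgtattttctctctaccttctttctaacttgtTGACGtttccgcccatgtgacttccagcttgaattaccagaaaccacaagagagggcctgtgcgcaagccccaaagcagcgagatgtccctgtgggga

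TGACG stood in the windows of 6 of the 9 genes, Fos, Fosb, Junb, Atf3, Batf and Maff, and in 17.8% of all 32851 promoter windows. Of the 9178 windows with a GC share of at least 60%, 27.1% held it. Its matches began 129 and 66 bases before the start in Fos, 60 in Fosb, 106 in Junb, 98 in Batf and 7 in Atf3, where it reads CGTCA on the gene's strand. The full TGACGTCA was found in Maff, in 1.55% of all windows and in 2.72% of those with a GC share of at least 60%. TGACATCA was found in Jun, 45 bases before the start, and in Maff, against 2.93% of all windows. Of the windows with a GC share of at least 60%, 0.861% held TGACATCA. TGANTCA matched none of the 9 genes' windows, 6.75% of all windows and 2.85% of those with a GC share of at least 60%. TGACG thus occurred both in genes more than 4-fold lower on the KO-labelled array (Fosb, Atf3, Fos) and in genes less than 2-fold apart (Batf, Maff). A gene was counted if any of its windows matched, and Maff had 3 windows, so gene counts and window shares differ in unit. A match describes letters in a window and not a bound site, and the absence of a match says nothing of the factor.

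Genes that act with or on AP-1 were taken from lists. Beside these lists, 5.04% of all measured genes were at least 2-fold lower and 4.82% at least 2-fold higher. Of 18 zipper relatives and partners outside the 10 genes, 17 were measured, 1 was at least 2-fold lower and 2 were at least 2-fold higher on the KO-labelled array, with a median of 0.01. Batf3 and Batf2, relatives of Batf known from dendritic cells and macrophages, were 2.15-fold and 2.03-fold higher, and Mafk, a relative of Maff, was at -0.89. With normexp correction the differences of Batf3 and Batf2 were 0.58 and 0.49, short of 2-fold, on the spike-in scale they were 0.58 and 0.50, and neither gene was measured under a stricter filter on dim probes. Batf2 was also short of 2-fold under quantile (0.95) and loess (0.95) normalization and in the deposited values (0.94). On the spike-in scale 5 of the 17 relatives were at least 2-fold lower and 0 higher, beside 18.9% of all genes lower on that scale.

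The kinases above AP-1 were compared at the RNA level. None of the 23 listed kinases was 2-fold apart, beside 5.04% of all genes lower and 4.82% higher, and their median was -0.03. With the spike-in scale 2 were at least 2-fold lower, beside 18.9% of all genes. The greatest differences were -0.83 for Mapk13, a p38 kinase of epidermis, and 0.74 for Mapk9, which encodes a Jun N-terminal kinase. The 12 transcription factors that act at AP-1 gene promoters also held 0 genes past 2-fold, with a median of -0.07. Srf, which binds the serum response element of Fos, was at -0.45, and its coactivator gene Mrtfb was at 0.44. Of 13 regulators of AP-1 protein stability or activity, 0 were 2-fold apart and 12 lay below 0, with a median of -0.31, beside 54.9% of all measured genes below 0. On the spike-in scale 3 of the 13 were at least 2-fold lower, beside the same 18.9% of all genes. The shares of 5.04% and 4.82% also stand beside the promoter factors and regulators, so 0 past 2-fold in lists this short says little. RNA levels of these kinases and factors do not report their activity.

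Genes listed as AP-1 targets lay on both sides. Of 31 listed, 28 were measured, and their median was -0.11. On the KO-labelled array 4 were at least 2-fold lower and 5 at least 2-fold higher, beside 5.04% and 4.82% of all genes. Prl2c3 is outside these counts, as it was well above background only on the WT-labelled array. The lower genes were Il6 at -2.21, Areg at -1.79, Ptgs2 at -1.30 and Hbegf at -1.11. They encode a cytokine, an EGF receptor ligand, a prostaglandin synthase and a second EGF receptor ligand. The higher genes were the matrix metalloproteinase genes Mmp13 at 1.98 and Mmp3 at 1.18, the phosphoprotein gene Spp1 at 1.42, the protease inhibitor gene Timp1 at 1.28 and the activin antagonist gene Fst at 1.22. Ptgs2, Hbegf, Mmp3, Timp1 and Fst were named after their values were seen. On the spike-in scale the same list had 11 lower genes and 1 higher gene, so its balance depended on the scale. Of all genes, 18.9% were at least 2-fold lower on that scale.

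Other immediate early genes, outside the AP-1 family, lay mostly below 0. Of 22 genes, 8 were at least 2-fold lower on the KO-labelled array, beside 5.04% of all genes, 0 were at least 2-fold higher and 21 lay below 0, beside 54.9% of all genes, with a median of -0.69. On the spike-in scale 14 of the 22 were at least 2-fold lower, beside 18.9% of all genes on that scale. Nr4a2 and Nr4a1, nuclear receptors without a known natural ligand, were at -2.78 and -2.74. Arc, best known from neurons, was at -2.16, and Dusp1, a phosphatase that switches off MAP kinases, was at -2.06.

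**Figure D4:**
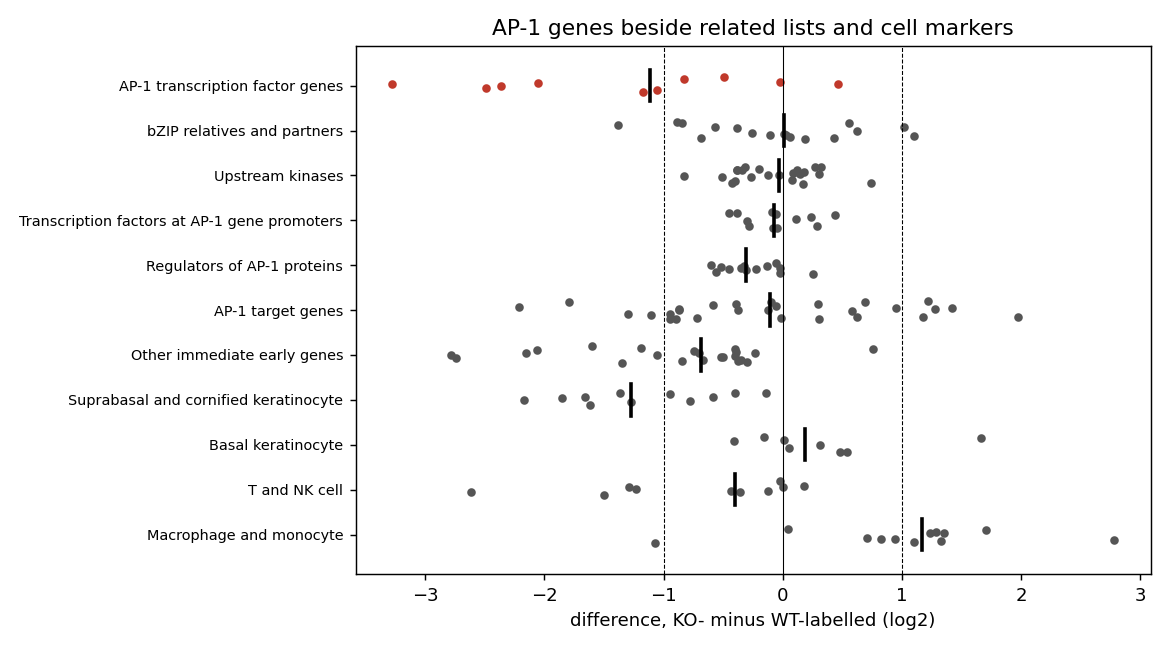
Difference of each measured gene in log2 units, KO-labelled minus WT-labelled, for the AP-1 genes (red), the related lists and a choice of cell marker lists (grey). Black bars are medians and dashed lines mark 2-fold. The AP-1 genes have a median of -1.12, the kinases above them -0.03, the listed targets -0.11 and the suprabasal markers -1.28.

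Markers of several cell types also differed between the arrays, and their part in the AP-1 differences was not tested. Over all measured genes, the share beside the counts below was 5.04% at least 2-fold lower and 4.82% at least 2-fold higher. Of 12 suprabasal and cornified keratinocyte markers, 11 were measured, 6 were at least 2-fold lower and 0 at least 2-fold higher, with a median of -1.28. Their summed level, in multiples of the 75th percentile signal, was 866 on the KO-labelled and 1678 on the WT-labelled array. The 8 basal keratinocyte markers had a median of 0.18, with 0 lower and 1 higher, and summed levels of 1371 on the KO-labelled and 1003 on the WT-labelled array. Such sums weigh the brightest probes most, and Krt5, the higher marker at 1.66, made up most of that gap. The median was -2.84 for 10 sebaceous gland markers (8 lower, 0 higher). It was -2.82 for the 3 measured of 6 melanocyte markers (3 lower, 0 higher). Tyr, Tyrp1 and Sox10 were well above background only on the WT-labelled array. For immune cells, the 12 macrophage and monocyte markers had a median of 1.17 (1 lower, 7 higher), with summed levels of 35.4 on the KO-labelled and 16.8 on the WT-labelled array. Batf, the one AP-1 gene with a positive difference, is set beside lymphocyte and dendritic cell markers. The 10 measured T and NK cell markers had a median of -0.40 (4 lower, 0 higher). Their summed levels were 3.95 on the KO-labelled and 5.51 on the WT-labelled array. Cd8a is outside these counts, as it was well above background only on the KO-labelled array. The 7 measured dendritic and Langerhans cell markers had a median of 0.95 (1 lower, 3 higher) and summed levels of 89.8 on the KO-labelled and 47.6 on the WT-labelled array. The lower one was Cd207 at -1.66 (-0.99 with normexp correction), and the higher ones were H2-Aa at 1.27, Itgax at 1.21 and Ciita at 1.14. H2-Eb1 and H2-Ab1 had the highest levels of the list on both arrays and weigh most in the sums. Zbtb46, Xcr1 and Clec9a were not well above background on either array. The 4 measured B and plasma cell markers had a median of -0.69 (2 lower, 1 higher) and summed levels of 1.32 on the KO-labelled and 0.886 on the WT-labelled array. The higher one was Jchain, the joining chain of secreted antibodies, at 1.89, while Cd79a and Mzb1 were not well above background on either. Ms4a1 was well above background only on the KO-labelled array, and Pax5 only on the WT-labelled array. Mast cell markers had a median of -1.07 (4 lower, 1 higher of 7) and fibroblast markers of -0.02 (0 lower, 1 higher of 8). Endothelial markers had a median of 0.08 (0 of 8 past 2-fold) and smooth muscle and pericyte markers of 1.05 (0 lower, 4 higher of 7). The mast cell marker Ms4a2 was well above background only on the WT-labelled array, and the muscle marker Des only on the KO-labelled array. On the spike-in scale higher markers numbered 2 for macrophages and monocytes, 0 for dendritic and Langerhans cells and 1 for smooth muscle and pericytes. Of all 19852 genes, 268 were at least 2-fold higher on that scale. The basal keratinocyte and endothelial medians turned negative there, at -0.34 and -0.45. With normexp correction the higher markers numbered 4 for macrophages and monocytes, 2 for dendritic and Langerhans cells and 2 for smooth muscle and pericytes, and the lower markers were 2 for T and NK cells and 0 for B and plasma cells.

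Across the main values and 9 alternative settings, Fos, Fosb, Fosl1 and Atf3 were at least 2-fold lower on the KO-labelled array each time. Fos, Fosl1 and Atf3 had 1 probe each, so the filter, brightest-probe and median settings returned their main values by construction. Among these settings only the unfiltered one could change Fosb, through its second probe. Over the alternatives Fosb ranged from -3.81 to -3.07 and Atf3 from -3.01 to -2.19. Fos ranged from -2.89 to -2.12 and Fosl1 from -2.58 to -1.76. Jun ranged from -1.36 to -0.58 and Maff from -1.02 to -0.28, and both were past 2-fold on the spike-in scale alone. That scale moved the median of all genes by -0.53, and relative to that shift Jun and Maff stayed where they were. Fosl2 ranged from -0.55 to 0.06 and Batf from -0.06 to 0.46, so the sign of either depended on the setting.

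**Figure D5:**
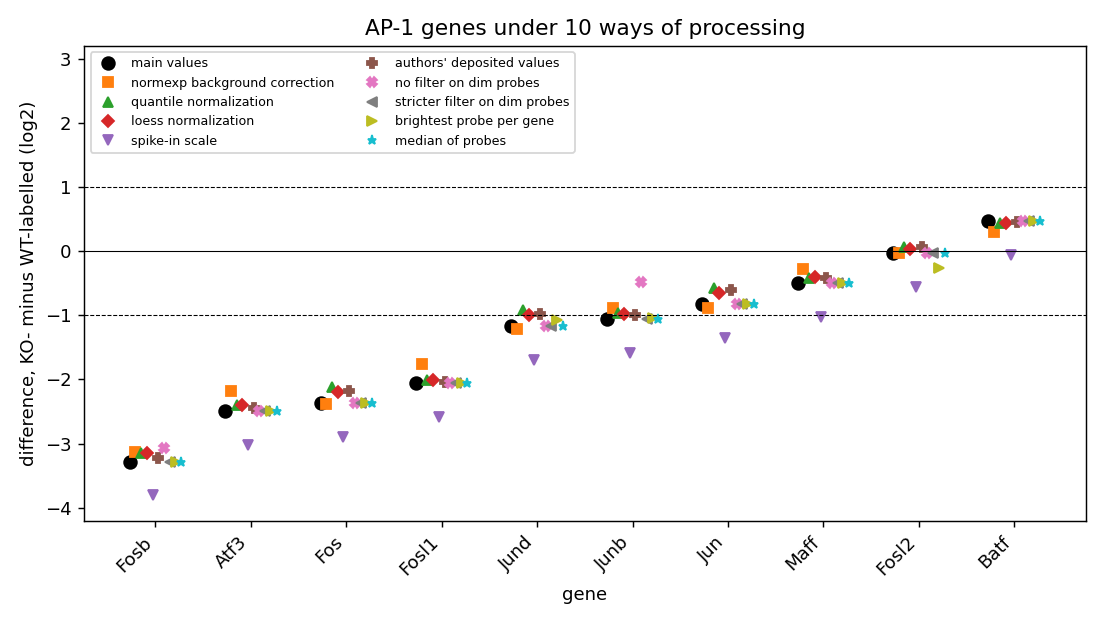
Difference of each AP-1 gene in log2 units, KO-labelled minus WT-labelled, under the main values (black circles) and 9 alternative settings, with dashed lines at 2-fold. Fosb, Atf3, Fos and Fosl1 lie below the lower dashed line throughout, Jund and Junb lie on both sides of it, and the spike-in scale is the lowest point of every gene.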

How the data were processed

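Skin tumour RNA was hybridised to 2 single-colour Agilent arrays, 1 per genotype, on the same slide and in the same scan per the file headers. Spot intensity was read by the authors with Agilent Feature Extraction 10.7.1.1, per the submitters' processing notes, with background subtraction and no normalization between arrays per the file headers. A second table deposited by the authors holds log2 values. Set against the scanner signal these correlated at r = 0.9997 (KO-labelled) and 0.9999 (WT-labelled), with a median of 4.96 in both columns. The scale is therefore log2 and both columns share 1 distribution, as read from the values. How they were made is not stated in the labels.

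Probe values were log2 processed signals after subtracting the 75th percentile of each array's non-control probes. Probes counted as measured when the majority of their spots exceeded background clearly on both arrays (29992 of 56594 probes). Measured probes were averaged per gene, and genes at least 1 log2 unit apart were called, with no test. For a probe dim on one array, the fold is a lower limit, taken against the dim array's faintest clearly detected signal or the probe's own signal there, whichever was higher. No spot was saturated. Probes were named through RefSeq accessions where these matched, otherwise by the array file. Probe positions are on mm9. Exon and untranslated region annotation of that build was not used here. Python 3.11.15, pandas 2.3.3, R 4.3.3 and limma 3.58.1 were used, and the calculation was tested on simulated data. The number of arrays limits the precision.

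The AP-1 genes, the lists, the settings and the named genes were chosen with earlier results of these data known. The text names all 10 AP-1 genes, P2ry6 and up to 4 genes of a list by size of difference, and says where others were added. Krt14, H2-Eb1, H2-Ab1 and the markers given as not well above background were named after their values were seen. Some genes that this rule takes are not reported here. Alternatives were normexp correction (offset 50), quantile and loess (span 0.4) normalization, a spike-in scale (8 probes), the deposited values, no filter and a stricter filter (4 times the lowest signal well above background), the brightest probe and the median of probes.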

Additional observations from a re-analysis of the deposited data

How the results depend on the processing

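For all 9 alternatives Fos, Fosb, Fosl1 and Atf3 kept their direction and stayed past 2-fold, and the number of AP-1 genes at least 2-fold lower lay between 4 and 8. For Fos, Fosl1 and Atf3, with 1 probe each, the settings on dim probes and on combining probes could only return the main value. The AP-1 median was -1.64 on the spike-in scale, which lowers every gene by 0.53. All genes at least 2-fold lower numbered 578 with normexp correction, 3758 on the spike-in scale and 2136 without a filter on dim probes. All genes at least 2-fold higher numbered 367, 268 and 2245 in the same settings and 540 under the stricter filter. The unfiltered setting tests 37293 genes and the stricter one 15561. The cause of the change under normexp was not tested. The mast cell markers' median changed sign to 0.19 under the stricter filter, which leaves fewer markers. Of 48 further genes (P2ry6 and the leading list genes) at least 2-fold apart, 0 of 416 values under the alternatives lay on the other side of 0, and 382 stayed past 2-fold. These genes were chosen for large differences on the same arrays. Taking the brightest probe or the median also leaves a gene with 1 measured probe unchanged, so these counts are not independent support. No paired analysis was possible because each genotype has 1 array. Signal near background limits the second Fosb probe and the dim Junb probe, and 1 array per genotype limits every value.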
